A study of Mus musculus with 11 samples.

Results

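Livers of obese mice that expressed FXR-K217R were set against livers of lean mice that expressed FXR-K217Q. The comparison used 6 of the 11 arrays of the study, 3 from each group, and was described over all 15469 genes detected. The arrays were taken by their labels, and no measured value entered that choice. FXR (Nr1h4) is the nuclear receptor that bile acids activate. In FXR-K217R an arginine stands in place of a lysine, so that this residue cannot be acetylated, and in FXR-K217Q a glutamine stands there, which resembles an acetylated lysine. The series asked what an altered balance between acetylation and SUMO attachment of FXR does in obesity. Its other groups were obese mice with FXR-WT (3 arrays) and lean mice with FXR-WT (2 arrays). All mice were male C57BL/6J, labelled 8 weeks of age, and all received their FXR form by adenovirus. A week later each mouse got an overnight treatment with GW4064, which activates FXR, at 30 mg/kg in corn oil. No group was left without virus or without agonist, and the labels name no deletion of the mouse's own Nr1h4.

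Receptor form and body state change together between both groups, so a difference between them cannot be told apart as one of the receptor or one of obesity. Nothing in the labels tells if replicates came from separate mice, so a p-value here speaks only to the spread among these samples, which may be technical. In whole liver, fewer cells of a type and less RNA per cell cannot be told apart. Levels are normalized probe intensities on a log2 scale, on which a difference of 1 is a doubling, and "rose", "fell" and "past 5% FDR" refer to limma with Benjamini-Hochberg adjustment over all 15469 genes. A change is the obese FXR-K217R mean minus the lean FXR-K217Q mean.

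Hepatocytes make cholesterol through the mevalonate and sterol pathway, whose genes are switched on together by the transcription factor SREBP2 when sterols in the endoplasmic reticulum run low and stay quiet when sterols are plentiful. Fat that the liver takes up or makes is stored in lipid droplets, which are coated by perilipins and CIDE proteins, and a fatty liver turns on droplet genes that are better known from adipose tissue. PPAR-alpha, the receptor that fatty acids activate, drives genes of fatty acid oxidation. FXR lowers bile acid synthesis, partly through the corepressor SHP (Nr0b2), and raises bile acid export.

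Nr1h4 was read at 12.53, 12.35 and 12.38 in obese FXR-K217R livers and at 12.34, 11.99 and 12.27 in lean FXR-K217Q livers. The 3 obese arrays lay just above the 3 lean ones, and the change of 0.22 (SE 0.13) did not pass (adjusted p = 0.501). It is not stated if this probe picks up viral Nr1h4 RNA, endogenous Nr1h4 RNA or a sum of them. Nr0b2 was detected on 0 of the 11 arrays and was not tested. The liver products Ttr, a thyroid hormone carrier, Apoa1, the main protein of HDL, and Serpina1b, an alpha-1-antitrypsin, were detected on all 6 arrays.

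The arrays read a mean of 43.1 to 44.0 beads per probe, and each detected 18263 to 19500 of the 45281 probes. Lean FXR-K217Q replicate 3 stood apart. Across genes, its mean correlation with its own group was 0.981 and its closest array was lean FXR-WT replicate 2 (r = 0.988), while replicates 1 and 2 of the group were closest to one another (r = 0.992). The obese FXR-K217R arrays all correlated best with an obese FXR-WT array (r of 0.991 to 0.992). On the first principal component of the 6 arrays, with 42.0% of the variance, the obese FXR-K217R arrays lay at -25.3, -10.5 and -17.3 and the lean FXR-K217Q arrays at 2.14, 6.43 and 44.6, so replicate 3 was the far end of an axis on which both groups were also separate. Dbp, a clock-driven transcription factor, was at 13.09, 12.71 and 13.27 in obese FXR-K217R livers and at 12.87, 12.85 and 10.45 in lean FXR-K217Q livers (change 0.97, adjusted p = 0.544, and 0.16 without lean replicate 3). Arntl, the clock activator BMAL1, was at 5.84, 6.10 and 5.74 against 6.55, 6.30 and 8.09 (change -1.09, adjusted p = 0.307, and -0.53 without lean replicate 3).

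In all, 76 of the 15469 genes passed 5% FDR (0.491% of genes), of which 40 were higher (0.259%) and 36 lower (0.233%) in obese FXR-K217R livers. The 3 and 3 arrays of all 76 did not overlap, as was the case for 2904 genes in all (18.8%). Among the 76, 62 carry a gene name and 14 a clone or locus symbol, and 55 changed by at least 1 on the log2 scale. The median change was 1.25 for the genes that rose and -1.34 for the genes that fell. An unadjusted p under 0.05 was found for 2164 genes. The number of calls is sensitive to single arrays: it was 29 without obese FXR-K217R replicate 1, 47 without its replicate 3, 45 without lean FXR-K217Q replicate 1 or replicate 2 and 124 without obese FXR-WT replicate 1. That last array is in neither group. It enters the normalization, the detection filter, the choice of probes and the estimate of the spread. Leaving out lean FXR-K217Q replicate 3 gave 69. Each of the 11 arrays was left out in turn, and 25 of the 76 genes passed every time. Among these 25 were Cidea, Cidec, Scd1, Sqle, Cyp51, Idi1, Msmo1, Nsdhl, Fdps, Serpina1e and Enho. Of the 44 gene lists described here, 9 held a gene past 5% FDR.

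Genes of cholesterol synthesis were prominent among the genes that fell. Of 21 listed, 18 were tested, and 10 fell and 0 rose (0.491% of all genes passed in either direction). All 18 changes were negative with a median of -1.26, beside 0.007 over all genes, and 17 of the 18 were lower without overlap, as were 8.87% of all genes. Hmgcs1 and Fdft1 have no probe under these symbols and Ggps1 was not detected on enough arrays. The changes spanned every stretch of the pathway. The plot of cholesterol biosynthesis genes by array shows that the separation was widest for Sqle and nearly closed for Sc5d.

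The sequences just before the start sites of these genes are shown because so many of them moved together, and because the CCAAT box, a short element bound by the factor NF-Y that is known from sterol gene promoters, recurs in them. They are the 250 bases before the RefSeq start (GRCm38.p6), read 5′ to 3′ on the strand of the gene, for the 5 largest falls of the list that have an entry in the table. Capitals mark CCAAT, or ATTGG where the box lies on the opposite strand. Both RefSeq starts of Cidec, a gene that rose and is described further on, follow for contrast. Cidec is a single example and does not stand for all genes that rose, as 9 of the 26 with an entry hold the box. The positions are chr13:8885356-8885605 (plus strand) for Idi1, chr8:64733579-64733828 (minus) for Msmo1, chr8:122443423-122443672 (minus) for Mvd, chr5:4104698-4104947 (minus) for Cyp51 and chrX:72918271-72918520 (plus) for Nsdhl. Those of Cidec are chr6:113435761-113436010 and chr6:113434765-113435014 (both minus).
Idi1: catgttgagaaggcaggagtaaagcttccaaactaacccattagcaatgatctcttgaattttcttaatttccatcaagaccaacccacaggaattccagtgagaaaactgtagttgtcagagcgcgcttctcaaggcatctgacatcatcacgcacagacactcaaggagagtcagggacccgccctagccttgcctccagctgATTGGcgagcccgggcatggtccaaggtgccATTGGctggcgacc
Msmo1: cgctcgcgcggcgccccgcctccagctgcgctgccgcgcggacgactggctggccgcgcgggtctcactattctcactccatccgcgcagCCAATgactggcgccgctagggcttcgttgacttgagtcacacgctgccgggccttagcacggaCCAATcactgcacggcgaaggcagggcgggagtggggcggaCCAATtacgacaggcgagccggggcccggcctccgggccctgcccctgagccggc
Mvd: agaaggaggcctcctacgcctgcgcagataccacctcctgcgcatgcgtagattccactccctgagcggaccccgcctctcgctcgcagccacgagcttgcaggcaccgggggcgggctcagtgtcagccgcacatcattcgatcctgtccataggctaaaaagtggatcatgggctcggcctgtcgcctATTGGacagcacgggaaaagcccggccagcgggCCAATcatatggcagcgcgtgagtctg
Cyp51: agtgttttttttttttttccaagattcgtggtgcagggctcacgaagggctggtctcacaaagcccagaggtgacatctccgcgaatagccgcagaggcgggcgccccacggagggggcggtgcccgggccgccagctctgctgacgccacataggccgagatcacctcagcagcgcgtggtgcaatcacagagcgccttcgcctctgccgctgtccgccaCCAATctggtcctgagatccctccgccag
Nsdhl: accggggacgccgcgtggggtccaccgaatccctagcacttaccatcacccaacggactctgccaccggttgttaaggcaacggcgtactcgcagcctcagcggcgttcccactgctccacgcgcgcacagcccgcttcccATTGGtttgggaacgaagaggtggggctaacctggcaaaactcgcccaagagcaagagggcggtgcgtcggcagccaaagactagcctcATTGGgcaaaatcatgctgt
Cidec, first start: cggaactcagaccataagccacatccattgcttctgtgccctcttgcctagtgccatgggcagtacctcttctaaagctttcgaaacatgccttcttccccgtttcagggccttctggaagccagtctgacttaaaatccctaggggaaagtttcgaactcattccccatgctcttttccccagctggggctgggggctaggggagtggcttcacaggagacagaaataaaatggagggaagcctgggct
Cidec, second start: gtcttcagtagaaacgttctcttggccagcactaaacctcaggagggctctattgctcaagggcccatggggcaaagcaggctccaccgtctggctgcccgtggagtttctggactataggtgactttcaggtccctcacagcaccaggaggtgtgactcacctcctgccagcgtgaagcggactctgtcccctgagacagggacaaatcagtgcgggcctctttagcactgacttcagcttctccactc

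The box occurs 3 times before Msmo1, 2 times before Idi1, Mvd and Nsdhl, 1 time before Cyp51 and 0 times before either start of Cidec. CCAAT on either strand was present before 8 of the 8 fallen cholesterol genes with an entry, of 10 that fell. Over the whole comparison it was present in 20 of the 24 genes that fell and have an entry (83.3%) and in 9 of the 26 that rose and have one (34.6%), beside 10133 of all 27025 genes of the table (37.5%). The motif TCACNCCAC, one form of the sterol regulatory element, was found before 0 of the 24 and 0 of the 26, and before 331 of the 27025. These are matches of letters in a fixed window and say nothing about binding.

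The first steps of the pathway, from acetyl units to isoprenoids, were lower. Idi1, the isomerase that makes dimethylallyl diphosphate, was at 6.00, 6.57 and 5.93 in obese FXR-K217R livers and at 8.64, 8.45 and 9.27 in lean FXR-K217Q livers, a change of -2.62 (SE 0.27, adjusted p = 0.00286). Mvd, mevalonate diphosphate decarboxylase, was at 6.45, 6.88 and 6.17 against 8.41, 8.10 and 9.83 (-2.28, SE 0.37, adjusted p = 0.0259). In both genes the groups were far apart, and lean replicate 3 was the highest array. The call of Mvd was lost without 5 of the arrays, at an adjusted p of up to 0.114 without obese FXR-K217R replicate 1. Fdps, which makes farnesyl diphosphate, was at 10.55, 11.22 and 11.13 against 12.80, 12.84 and 13.48, a 4.22-fold lower level (adjusted p = 0.00424), and its other probe changed by -2.03. Pmvk, phosphomevalonate kinase, also fell (-1.31, adjusted p = 0.0259, and 0.123 without obese FXR-K217R replicate 1). Acat2, which makes acetoacetyl-CoA, was lower without overlap and did not pass (-0.48, adjusted p = 0.138). Mvk, mevalonate kinase, was not well above background on any obese FXR-K217R array and was detected on 1 of the 3 lean FXR-K217Q arrays. Lower calls were also made for a locus annotated as similar to farnesyl pyrophosphate synthase (-2.39, adjusted p = 0.00763) and for one annotated as similar to Hmgcs1 (-1.38, adjusted p = 0.00977). These 2 probes may share sequence with the genes they are named after.

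The steps from squalene to cholesterol held the largest fall of the whole comparison. Sqle, squalene epoxidase, which carries out the first oxygen-dependent step of sterol synthesis, was at 7.14, 8.36 and 6.98 in obese FXR-K217R livers and at 11.28, 11.43 and 12.21 in lean FXR-K217Q livers. Every obese array lay far below every lean one, at a 17.7-fold lower level (-4.15, SE 0.36, adjusted p = 0.00148), and a second probe of the gene changed by -3.85. Cyp51, lanosterol demethylase, was at 7.54, 8.34 and 7.62 against 10.51, 10.55 and 10.95 (-2.84, SE 0.25, adjusted p = 0.00148). Msmo1 (Sc4mol on the array), a methylsterol oxidase, was at 9.41, 10.89 and 10.08 against 12.40, 12.52 and 13.25 (-2.60, adjusted p = 0.0110). Nsdhl, its partner in removing sterol methyl groups, was at 6.54, 6.26 and 6.35 against 8.46, 8.88 and 8.19, and its 4 probes changed by -2.41 to -1.57. In Sqle, Cyp51 and Msmo1 obese replicate 2 was the highest array of its group, whereas in Nsdhl it was the lowest. Lss, which closes the sterol rings, fell by 1.78 (adjusted p = 0.0212, and 0.0957 without obese FXR-K217R replicate 1). Dhcr7, a reductase of the final steps, had tight groups, at 8.859, 8.997 and 8.874 in obese FXR-K217R livers and at 10.002, 9.945 and 9.872 in lean FXR-K217Q livers (-1.03, adjusted p = 0.0102, and 0.0506 without obese FXR-K217R replicate 1). Hsd17b7 (-1.22), Tm7sf2 (-1.20) and Ebp (-0.45) were lower without overlap and did not pass, although Hsd17b7 did without lean FXR-K217Q replicate 3 (-0.88, adjusted p = 0.0236). Sc5d (-0.18) overlapped.

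**Figure D1:**
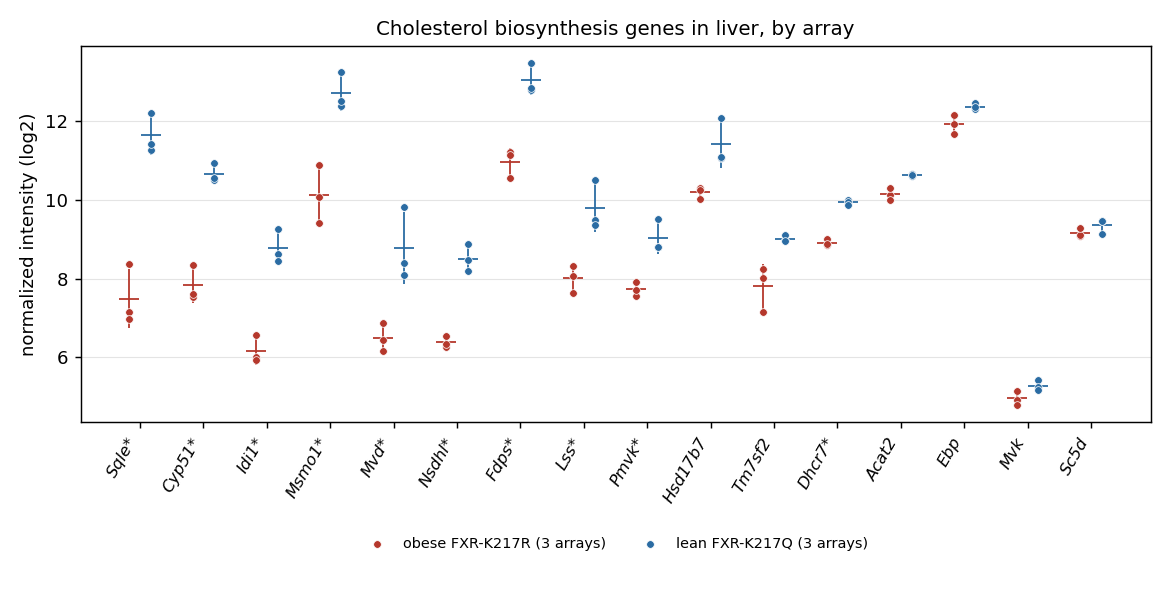
Normalized log2 intensity (vertical axis) of 16 of the 18 tested cholesterol biosynthesis genes on each of the 3 obese FXR-K217R arrays and the 3 lean FXR-K217Q arrays; points are arrays, horizontal lines group means, vertical lines 1 SD, and an asterisk marks a gene past 5% FDR. The groups are separate for 15 of the 16 genes drawn, with the widest gap at Sqle (-4.15).

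Of the 8 tested regulators and targets of SREBP2 outside the pathway, 2 fell and 0 rose (0.491% of all genes passed in either direction). Of their changes 7 were negative and 1 was positive, with a median of -0.40. Stard4, a cholesterol carrier of the cytosol, fell by 1.02 (adjusted p = 0.0267), and this call held in only 3 of the 11 fits that leave out 1 array (adjusted p of up to 0.122). Srebf2 itself (-0.69, adjusted p = 0.189) and Insig1, which retains SREBPs in the endoplasmic reticulum (-0.46), overlapped between groups and did not pass. The other 2 probes of Insig1 changed by -1.26 and -1.12, further than the brightest one. Mmab, an enzyme of vitamin B12 metabolism whose gene adjoins Mvk and is known to share its promoter region, fell by 1.16 (adjusted p = 0.0102), and Rdh11, a retinal reductase, by 1.23 (adjusted p = 0.00256).

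Lean FXR-K217Q replicate 3 was the highest array of its group for 8 of the 10 cholesterol genes that fell. Without it 11 genes of the list passed and the median was -1.16. Without obese FXR-K217R replicate 1, 6 passed, and in a fit of only the 6 arrays, which leaves fewer degrees of freedom, 6 passed as well. Over all alternatives the median stayed between -1.41 and -1.04.

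Lipid droplet genes were higher in the same livers, and those that rose encode CIDE proteins, which enlarge droplets by fusing them. Of 21 listed genes of the droplet coat and PPAR-gamma targets, 17 were tested, 2 rose and 0 fell (0.259% of all genes rose). All 17 changes were positive, though as small as 0.03, with a median of 0.50, and 11 were higher without overlap (9.9% of all genes were). Cidea was at 9.32, 9.44 and 10.34 in obese FXR-K217R livers and at 4.78, 4.79 and 4.51 in lean FXR-K217Q livers, where no array detected it. It had the largest rise and the smallest adjusted p of all genes (5.01, adjusted p = 7.65e-05). Measured against the dimmest detected signal on the lean arrays, it was at least 21.4-fold higher. Cidec was at 11.32, 11.28 and 11.85 against 9.20, 9.16 and 8.72, a 5.50-fold higher level without overlap (2.46, SE 0.22, adjusted p = 0.00148). The plot of lipid droplet genes by array shows how far these genes stand from the rest of the list. Plin4 (S3-12 on the array), a perilipin of forming droplets, changed by 1.38 (adjusted p = 0.0935), Plin2 (Adfp), the main perilipin of hepatocytes, by 0.62 (adjusted p = 0.103) and G0s2, an inhibitor of triglyceride lipolysis, by 0.67. All of these were higher without overlap and did not pass. Pparg, the receptor that drives adipocyte genes, changed by 0.57 with overlapping groups.

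**Figure D2:**
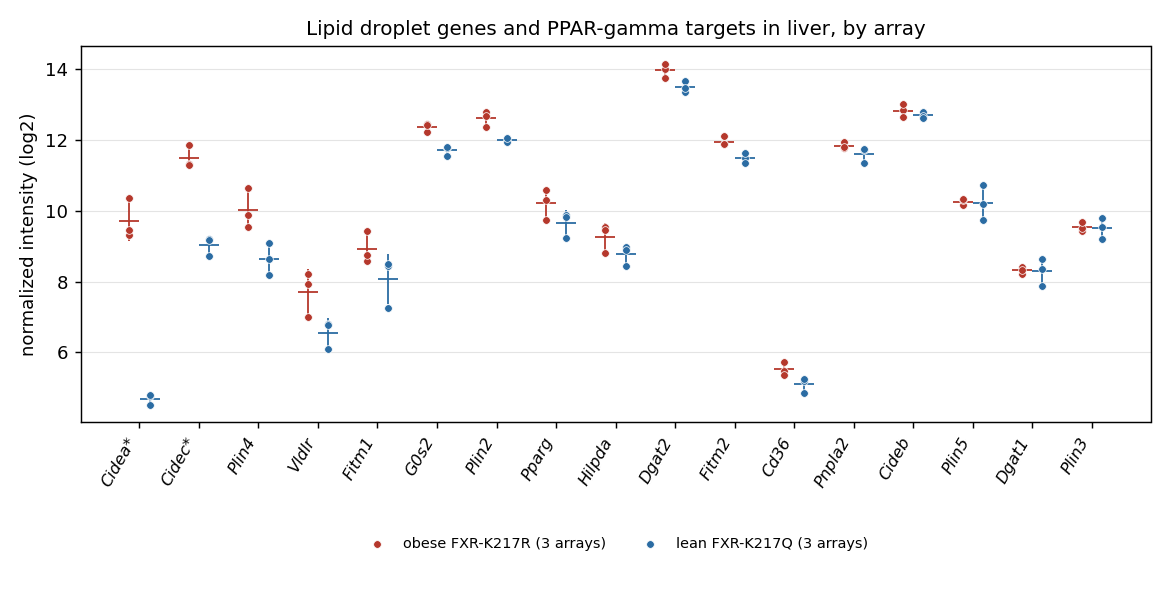
Normalized log2 intensity (vertical axis) of the 17 tested lipid droplet genes and PPAR-gamma targets on each of the 3 obese FXR-K217R and 3 lean FXR-K217Q arrays; points are arrays, horizontal lines group means, vertical lines 1 SD, and an asterisk marks a gene past 5% FDR. Cidea and Cidec stand apart (5.01 and 2.46), and the other 15 differ by 1.38 or less.

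Cidea is also a gene of brown fat, so genes of fat cells were looked at beside it. The defining fat cell genes Adipoq, Lep, Retn and Fabp4, and Ucp1 of brown fat, were detected on 0 of the 6 arrays. The summed level of the 7 adipocyte markers tested besides Cidea was 11420 to 17730 in obese FXR-K217R livers and 3073 to 17050 in lean FXR-K217Q livers, so these ranges overlapped. The brightest members weigh most in this sum, and hepatocytes may make some of them, so it is not a measure of fat cells alone. The part of fat cells in the rise of Cidea was not tested. Cfd, the complement factor adipsin that adipocytes secrete, was at 8.362, 11.002 and 9.484 in obese FXR-K217R livers and at 7.608, 7.601 and 7.179 in lean FXR-K217Q livers, higher without overlap but with a wide spread among obese arrays (2.15, adjusted p = 0.114).

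Fatty acid synthesis genes were mostly higher, and 1 of 17 tested rose (0.259% of all genes rose). Scd1, the desaturase that makes oleic acid, was at 15.01, 14.93 and 14.95 in obese FXR-K217R livers and at 14.01, 13.82 and 13.45 in lean FXR-K217Q livers, a 2.30-fold higher level without overlap (SE of the log2 change 0.14, adjusted p = 0.00476). Of the 17 changes 14 were positive, with a median of 0.47. Srebf1, which drives lipogenesis, was at 9.85, 9.85 and 10.38 against 9.05, 9.02 and 7.71 (1.43, adjusted p = 0.234), and Thrsp, a lipogenic nuclear protein, at 11.94, 12.40 and 12.67 against 11.48, 11.88 and 9.01 (1.55, adjusted p = 0.279). In both, lean replicate 3 was more than 1 below the other lean arrays, and it was the lowest of its group in 14 of the 17 genes. Without it the changes were 0.99 for Srebf1 (adjusted p = 0.440) and 0.66 for Thrsp (adjusted p = 0.276). Fasn, fatty acid synthase, overlapped (0.40). Elovl5, a fatty acid elongase, came nearest to passing among the rest (0.54, adjusted p = 0.0790). Without lean replicate 3 the median of the list was 0.42. Aacs, which activates acetoacetate for lipid synthesis, rose to 11.63, 11.09 and 11.43, against 10.25, 10.37 and 9.91 in lean FXR-K217Q livers (1.21, adjusted p = 0.0493). This call held in 2 of the 11 fits that leave out 1 array (adjusted p of up to 0.174, without obese FXR-K217R replicate 1).

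Genes of fatty acid oxidation that PPAR-alpha drives were led by acyl-CoA thioesterases, which release free fatty acids from coenzyme A. Of 25 tested, 2 rose and 0 fell, with a median of 0.30 (0.259% of all genes rose). The arrays of 9 were higher without overlap, beside 9.9% of all genes. Acot3 was at 9.74, 10.05 and 10.57 in obese FXR-K217R livers and at 7.70, 7.73 and 9.03 in lean FXR-K217Q livers (1.97, SE 0.35, adjusted p = 0.0392). Acot2 was at 7.92, 7.39 and 8.01 against 5.88, 6.14 and 6.30 (1.67, SE 0.25, adjusted p = 0.0154), but its second probe changed by only 0.03, and the thioesterases of this cluster are near copies of each other, so their signals are not fully separate. Acot1 (1.21, adjusted p = 0.0672) and Acot4 (0.78, adjusted p = 0.0935) were higher without overlap and did not pass. Pdk4, which holds back glucose oxidation, changed by 1.28 (adjusted p = 0.221). Fgf21, a fasting hormone of the liver, was at 9.37, 7.83 and 8.69 against 7.12, 6.99 and 7.87, and the groups overlapped (1.30, adjusted p = 0.264). The number of calls in this list was 0 without obese FXR-K217R replicate 1 or 3 or without lean FXR-K217Q replicate 1 or 2, and 3 without lean FXR-K217Q replicate 3. Without obese FXR-K217R replicate 3 the adjusted p of Acot3 was 0.152, and without obese FXR-K217R replicate 1 that of Acot2 was 0.0797.

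Further genes rose that are in none of these lists and were picked from the calls. Acot11, a thioesterase known from brown fat, was at 8.45, 8.51 and 8.76 in obese FXR-K217R livers and at 7.24, 7.27 and 7.17 in lean FXR-K217Q livers, and its 2 other probes changed by 0.72 and 0.97 (1.35 for the brightest, adjusted p = 0.00476). Pex11a, which divides peroxisomes, rose by 1.05 (adjusted p = 0.0295), with 3 further probes at 0.94 to 1.10. Pla2g6, a calcium-independent phospholipase, rose by 1.16 (adjusted p = 0.0288) and Txnip, the thioredoxin-binding protein that glucose induces, by 1.02 (adjusted p = 0.0121). Of these 4 calls that of Acot11 held without any 1 array, and the others were lost without obese FXR-K217R replicate 1 (adjusted p = 0.123 for Pex11a and Pla2g6, 0.0684 for Txnip). Apoa4, an apolipoprotein of triglyceride-rich particles, was at 14.54, 13.82 and 14.69 against 11.61, 11.17 and 13.21, higher without overlap (2.35, adjusted p = 0.0609), and lean replicate 3 was again the array nearest to the other group. Without that array Apoa4 passed (2.96, adjusted p = 0.00668).

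The plot of gene lists sets these groups beside others. In it, 0 members passed in 9 of the 14 lists drawn, and all members of the cholesterol and lipid droplet lists lie on one side of 0.

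**Figure D3:**
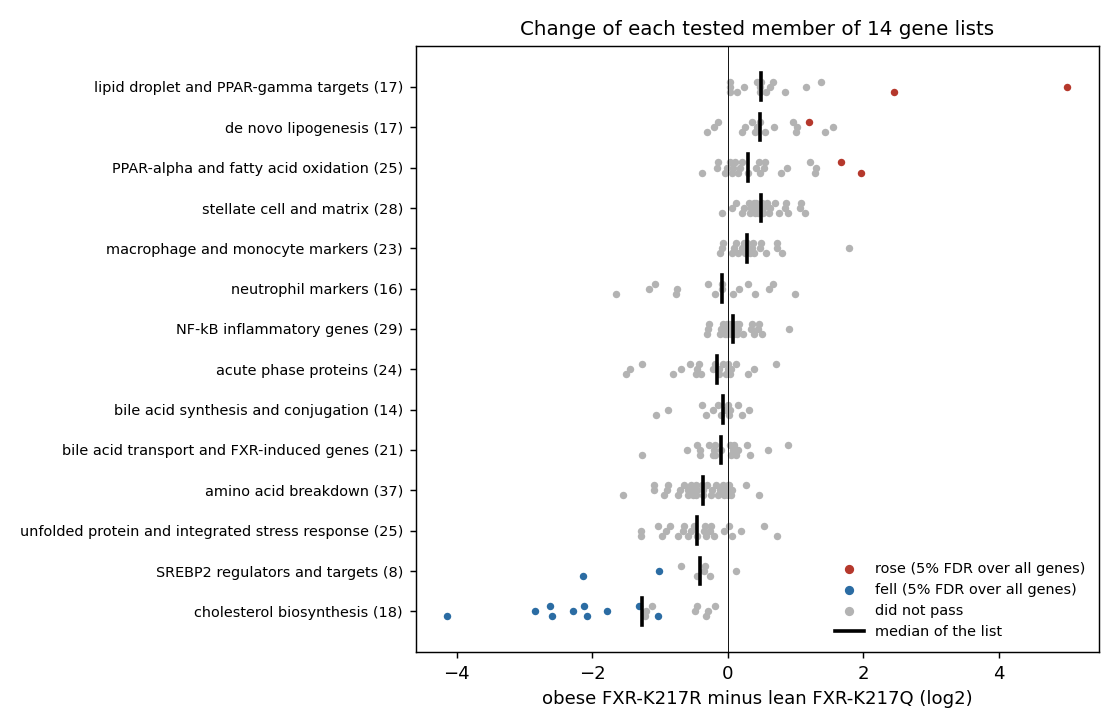
Change of each tested member (obese FXR-K217R minus lean FXR-K217Q, log2, horizontal axis) in 14 gene lists; the number tested is in parentheses, red and blue points rose and fell at 5% FDR over all genes, grey points did not pass, and black lines are list medians. The cholesterol list has its median at -1.26 and the lipid droplet list at 0.50.

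The largest rises outside lipid metabolism were of varied function. Rgs16, a regulator of G protein signalling, was at 11.07, 10.84 and 11.85 in obese FXR-K217R livers and at 8.13, 9.44 and 7.05 in lean FXR-K217Q livers, an 8.27-fold higher level with a wide lean group (3.05, adjusted p = 0.0422). Acta1, skeletal muscle actin, was at 8.94, 7.17 and 7.75 against 5.43, 4.50 and 5.97 (2.65, adjusted p = 0.0282), and 2 of the 3 lean arrays detected it. Fbp2, the muscle form of fructose bisphosphatase, was at 7.73, 6.45 and 7.23 against 5.58, 5.37 and 5.58 (1.62, adjusted p = 0.0221). Neither gene overlapped, and in both obese replicate 1 was highest and obese replicate 2 lowest of its group. The calls were lost in 8 of the 11 fits that leave out 1 array for Rgs16 (adjusted p of up to 0.157, without obese FXR-K217R replicate 3), in 7 for Acta1 (up to 0.0901, without lean FXR-K217Q replicate 2) and in 5 for Fbp2 (up to 0.0901, without lean FXR-K217Q replicate 2). Other muscle genes did not pass: Actn3, an actinin of fast fibres, changed by -0.46 and Mylpf, a myosin light chain, by -0.38. Ckm, muscle creatine kinase, and Tnnt3, a troponin, were detected on 0 of the 6 arrays. The part of muscle RNA in these rises was not tested. Tpm2, a tropomyosin of muscle that other cells also make, rose by 1.35 (adjusted p = 0.0295). Its call held in 5 of the 11 fits that leave out 1 array (adjusted p of up to 0.123, without obese FXR-K217R replicate 1).

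Among proteins of the membrane and the extracellular space, Gpc1, a heparan sulfate proteoglycan, rose by 1.62 (adjusted p = 0.0102), Aqp4, a water channel, by 1.47 (adjusted p = 0.00571), and Tmem45b, a membrane protein, by 1.78 (adjusted p = 0.0352). Serpina12, the adipokine vaspin, was at 13.16, 12.86 and 13.11 in obese FXR-K217R livers and at 12.05, 11.51 and 11.68 in lean FXR-K217Q livers, without overlap (1.30, adjusted p = 0.0102), and a second probe changed by 1.47. Tnfrsf22, a decoy receptor for the death ligand TRAIL in mice, rose by 1.37 (adjusted p = 0.00476), and its second probe changed by 0.65. Plscr4, a phospholipid scramblase, was at 6.86, 6.63 and 7.39 against 5.66, 5.73 and 5.35 (1.38, adjusted p = 0.0142). Limch1, an actin-binding protein, and Nrg1, a ligand of ErbB receptors, were not detected on any lean FXR-K217Q array and were at least 2.17-fold and at least 1.63-fold higher in obese FXR-K217R livers (adjusted p = 0.00256 and 0.0212). Col27a1, a fibrillar collagen, rose by 1.31 (adjusted p = 0.0375), and its other probe changed by 0.60. The calls of Gpc1, Aqp4, Tnfrsf22 and Limch1 held without any 1 array. Without obese FXR-K217R replicate 1 the adjusted p was 0.0592 for Serpina12, 0.0590 for Plscr4 and 0.107 for Nrg1, and without obese FXR-K217R replicate 3 it was 0.139 for Tmem45b and 0.148 for Col27a1.

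Among the genes that fell outside sterol metabolism, Tff3, a trefoil peptide of mucosal surfaces that hepatocytes also make, was at 5.51, 6.18 and 5.19 in obese FXR-K217R livers and at 8.52, 7.20 and 8.27 in lean FXR-K217Q livers (-2.37, adjusted p = 0.0102), and 2 of the 3 obese arrays detected it. Serpina1e, an alpha-1-antitrypsin gene of the mouse, was at 12.94, 12.96 and 12.53 against 14.77, 14.92 and 15.00 (-2.09, adjusted p = 0.00476). The Serpina1 genes are near copies, so the probe may cross-read. Enho (2310040A07Rik on the array), which encodes the liver-secreted peptide adropin, was at 5.45, 6.26 and 6.30 against 8.14, 8.56 and 8.89, and both of its probes were lower (-2.53 and -2.67, adjusted p = 0.00571 for the brighter). C8b, a subunit of the membrane attack complex, was at 10.07, 10.82 and 10.05 against 11.61, 11.58 and 12.04 (-1.43, adjusted p = 0.0212), and 1 of the 24 complement genes listed and tested passed (0.491% of all genes did). None of these 4 genes overlapped between groups. Without obese FXR-K217R replicate 1 the adjusted p was 0.107 for C8b and 0.0607 for Tff3, while Serpina1e and Enho passed without any 1 array. Without lean FXR-K217Q replicate 3 the count in the complement list was 0.

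Smaller falls were those of Ces2a (Ces6), a carboxylesterase (-1.36, adjusted p = 0.0117), Tmem218 of the primary cilium (-1.37, adjusted p = 0.0102), Unc13b, a vesicle priming factor (-1.31, adjusted p = 0.0102), and Susd4, a complement inhibitor (-0.99, adjusted p = 0.0212). A locus annotated as similar to the cytoplasmic aspartate aminotransferase fell by 1.48 (adjusted p = 0.0212). The calls of Tmem218 and Unc13b held without any 1 array. Without obese FXR-K217R replicate 1 the adjusted p was 0.0646 for Ces2a and 0.0863 for Susd4. Without lean FXR-K217Q replicate 2 it was 0.0901 for the locus. Of the 11 fits that leave out 1 array, 9 kept the call of Ces2a, 6 that of Susd4 and 6 that of the locus. Ocln, the tight junction protein occludin, had the smallest size of change among all calls, at 5.747, 5.747 and 5.951 in obese FXR-K217R livers and at 6.396, 6.391 and 6.521 in lean FXR-K217Q livers (-0.62, adjusted p = 0.0422), and its call held in 1 of the 11 fits that leave out 1 array (adjusted p of up to 0.160, without obese FXR-K217R replicate 1).

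Bile acid genes, the best known targets of FXR, did not pass between these groups, in which every mouse had received the agonist. Of 14 tested genes of bile acid synthesis 0 passed (median -0.07), and of 21 tested transport and FXR-induced genes 0 passed (median -0.10). Cyp7a1, the hydroxylase that limits the rate of bile acid synthesis, was at 10.73, 11.82 and 12.22 in obese FXR-K217R livers and at 12.08, 12.98 and 10.86 in lean FXR-K217Q livers (-0.38, SE 0.80, adjusted p = 0.871). Cyp8b1, which sets the share of cholic acid, was at 11.02, 12.46 and 13.10 against 13.47, 13.77 and 12.51 (-1.06, SE 1.11, adjusted p = 0.705). The arrays overlapped in both genes, and the spread within each group was near the size of the change or larger. Abcb11, the bile salt export pump that FXR induces, was at 11.43, 11.22 and 11.24 against 11.74, 11.92 and 11.45, lower without overlap but by only 0.40 (adjusted p = 0.473). Sdc1, syndecan-1 (-0.60, adjusted p = 0.188), and the sterol exporter subunit Abcg5 (0.59, adjusted p = 0.214) had the smallest p-values of the transport list. Abcg8, the partner of Abcg5, changed by 0.88 (adjusted p = 0.312). Among FXR and its partner receptors 0 of 14 passed (median -0.01), with Rxra at -0.39, and among acetylation and SUMO enzymes 0 of 18 (median 0.04), with the acetyltransferase Kat2b at -0.55.

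Inflammatory genes did not pass either. Of 29 tested genes driven by NF-kB, the central inflammatory transcription factor, 0 passed, with 19 changes positive and a median of 0.08 (-0.003 without lean FXR-K217Q replicate 3). Tnf was at 6.07, 6.71 and 5.95 in obese FXR-K217R livers and at 6.74, 5.96 and 5.99 in lean FXR-K217Q livers (0.01, adjusted p = 0.986). Il1b was at 7.41, 9.19 and 7.96 against 8.79, 7.98 and 8.64 (-0.28, adjusted p = 0.780), and Ccl2, which recruits monocytes, changed by 0.45 (adjusted p = 0.597). The groups overlapped in all 3 genes, and obese replicate 2 and lean replicate 1 were the highest arrays in each. Cxcl9, a chemokine that interferon gamma induces, had the smallest p of the list (0.90, adjusted p = 0.280). The acute phase proteins Saa1 (-0.12, adjusted p = 0.775) and Lcn2 (0.30, adjusted p = 0.7004) also overlapped, and of 24 such genes 0 passed (median -0.16). The other probe of Saa1 changed by -0.91, further than the brightest one.

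Markers of the immune and other nonparenchymal cells had 0 calls. Most of their changes were positive, beside 7927 of all 15469 genes. Exceptions were cholangiocyte markers (3 of 8 positive, median -0.06) and the neutrophil markers described next. Beside the counts that follow, 9.9% of all genes were higher without overlap. Of 23 tested macrophage and monocyte markers 20 were positive, 7 were higher without overlap and 0 passed (median 0.29), with Gpnmb, a lysosomal protein of lipid-laden macrophages, at 13.17, 11.57 and 11.92 in obese FXR-K217R livers and at 10.81, 11.01 and 9.47 in lean FXR-K217Q livers (1.79, adjusted p = 0.169). Stellate cell and matrix genes were positive in 27 of 28 (median 0.49, 5 higher without overlap, 0 passed), with Col4a1 at 0.61 and Col5a1 at 0.70. Their median was 0.29 without lean FXR-K217Q replicate 3. T and NK cell markers (17 of 20 positive, median 0.24) and B cell markers (9 of 10, median 0.40) had 0 calls, and so had the interferon response (22 of 27, median 0.24) and MHC class II genes (10 of 10, median 0.35). Without lean FXR-K217Q replicate 3 the last 2 medians were 0.06 and 0.14. Kupffer cell markers split evenly, with 5 of 9 positive.

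Neutrophil markers went in both directions. Of 16 tested, 7 were positive and 9 negative, 0 passed, and the median was -0.09. S100a9, a calprotectin subunit, was at 8.90, 9.42 and 8.80 in obese FXR-K217R livers and at 10.43, 9.78 and 10.39 in lean FXR-K217Q livers (-1.16, adjusted p = 0.0616), whereas Ltf, lactoferrin, was at 6.09, 6.61 and 5.95 against 5.34, 5.31 and 5.02 (0.99, adjusted p = 0.134), and 1 of the 3 lean arrays detected it. Neither gene overlapped. The summed level of the 16 markers was 19980 to 37060 in obese FXR-K217R livers and 19650 to 42030 in lean FXR-K217Q livers, with overlapping ranges. The brightest members weigh most in this sum. Among them was Lcn2, named above as an acute phase protein, at 14.97, 15.02 and 14.11 against 14.09, 13.98 and 15.12. The overlap of the sums therefore says little about dimmer markers such as S100a9 and Ltf.

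A second obese-against-lean comparison, with FXR-WT in both states, shares no array with this one and was set beside it. It had 185 genes past 5% FDR (1.2% of genes), 106 higher (0.685%) and 79 lower (0.511%). In both comparisons 54 genes passed, which is 71.1% of the calls with the mutants and 29.2% of those with FXR-WT, and all 54 had the same direction (24 higher, 30 lower). Of the 76 calls with the mutants, 75 had the same sign with FXR-WT, as did 67.1% of all genes, and the changes correlated across genes with r = 0.617, where genes are not independent. Both comparisons share a normalization, a detection filter and an estimate of the spread. When each was fitted on its own arrays, 29 and 110 genes passed, and the 14 in common had the same direction.

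All 18 cholesterol genes had a smaller change with the mutants than with FXR-WT, a difference in size that was not tested over the list. Their median was -1.26 beside -2.42 with FXR-WT, where 14 fell (0.511% of all genes did). Sqle was at 7.91, 7.27 and 7.86 in obese FXR-WT livers and at 12.14 and 12.43 in lean FXR-WT livers (-4.60), and Dhcr7 at 8.21, 8.62 and 8.69 against 10.72 and 10.83 (-2.27). Cidec was at 11.52, 11.58 and 11.17 against 7.75 and 7.09 (4.003), so that lean FXR-K217Q livers, at 8.72 to 9.20, lay above both lean FXR-WT ones. Lipogenesis genes had a median of 0.47 with the mutants and 0.01 with FXR-WT. Sqle of lean FXR-K217Q replicate 3 (12.21) lay between both lean FXR-WT arrays, while its Dhcr7 (9.87) lay below them. The clock gene Dbp was at 11.32 and 11.71 in lean FXR-WT livers, beside 12.87, 12.85 and 10.45 in lean FXR-K217Q livers. Arntl was at 7.62 and 7.63 in lean FXR-WT livers, beside 6.55, 6.30 and 8.09. The part of the clock in these differences was not tested. Of the 40 genes that rose with the mutants, 15 changed less than with FXR-WT, and of the 36 that fell, 20 did. These genes were picked by their change with the mutants, which tends to enlarge it. The 2 counts therefore cannot tell which comparison has the larger changes.

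**Figure D4:**
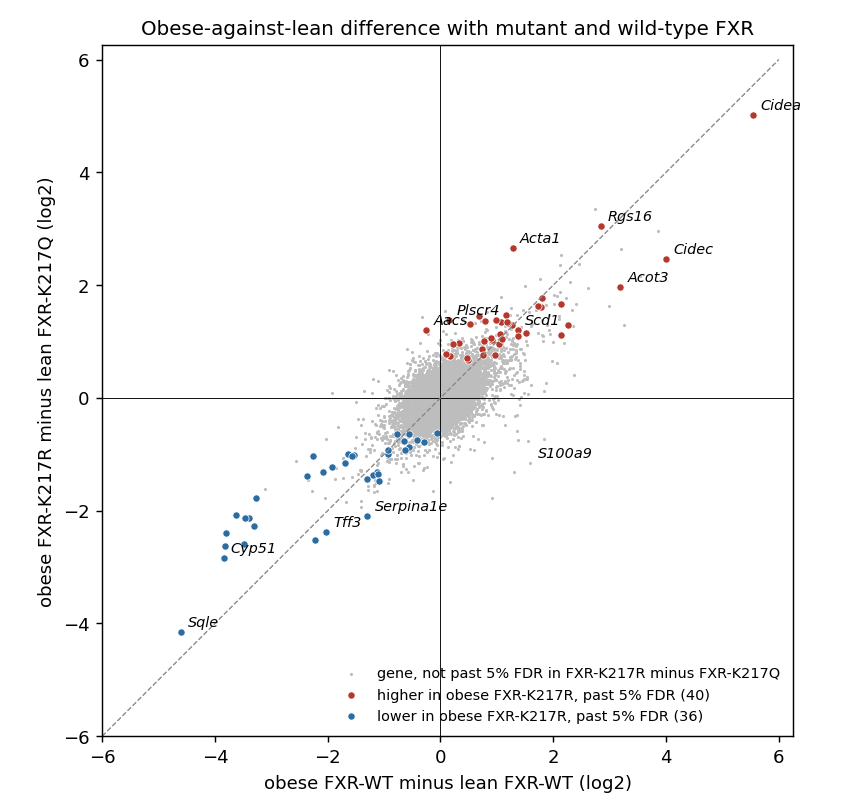
Change of each of the 15469 genes between obese FXR-K217R and lean FXR-K217Q livers (vertical axis, log2) against its change between obese FXR-WT and lean FXR-WT livers (horizontal axis, log2); red and blue points passed 5% FDR with the mutants and the dashed line marks equal change. Of the 76 coloured points 75 lie in the quadrants of equal sign, and Aacs (1.21 against -0.25) does not.

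The difference between both comparisons was tested in the same fit, where it is also the effect of FXR-K217R in obese livers minus that of FXR-K217Q in lean livers. With limma 0 of 15469 genes passed, while 728 had an unadjusted p under 0.05. S100a9 had the smallest p (7.89e-06, adjusted p = 0.122): it was at 11.36, 11.49 and 11.96 in obese FXR-WT livers and at 10.08 and 9.94 in lean FXR-WT livers, a change of 1.595 (adjusted p = 0.0176) opposite in sign to the -1.16 with the mutants. S100a8, its partner, ran the same way (1.37 with FXR-WT, -0.76 with the mutants, adjusted p of the difference 0.840). Neutrophil markers as a list had a median of -0.09 with the mutants and 1.16 with FXR-WT, where 5 of 16 rose (0.685% of all genes did). Dhcr7 differed by 1.24 (adjusted p = 0.708), and Tcrb-V8.3 (now Trbv13-1), a variable segment of the T cell receptor beta chain, by 2.01 (adjusted p = 0.840), with changes of 0.08 and -1.92. Among the 22 genes called only with the mutants, Aacs (adjusted p of the difference 0.849) and Plscr4 (a change of 0.16 with FXR-WT, adjusted p of the difference 0.859) did not pass either. Of the alternatives, 1 gene passed for the difference with an offset of 50 (adjusted p = 0.0454) and 1 with an intensity trend and robust variances (adjusted p = 0.0456), and 0 passed in the others.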

How the data were processed

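Liver RNA was read on 11 single-colour Illumina BeadChip arrays, grouped by their titles. Per the file headers, the deposited non-normalized table holds for every probe and array an average intensity, a bead count, a bead standard error and a detection p-value. The authors deposited normalized log2 values in 2 copies that do not differ (largest difference 0). The values computed here lie within 0.0271 of them. The authors used limma 3.12.3, per the submitters' processing notes. Its function and settings, and the build behind the probes, are not given here. Per the labels' protocols, cRNA carried biotin from an Illumina TotalPrep kit.

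Background correction and quantile normalization were done with neqc (limma 3.58.1, R 4.3.3, offset 16), which took detection p-values instead of control probes. A probe was kept when its detection p-value was below 0.05 on 2 or more arrays (21485 of 45281 probes), and each symbol was represented by its brightest probe. This left 15469 genes, of which 4785 have clone or locus symbols and 4256 had several probes. Of the symbols, 9785 are current in RefSeq's GRCm38.p6 annotation. The test was limma (lmFit and eBayes, two-sided) with 4 group means on all 11 arrays and Benjamini-Hochberg adjustment at 5% FDR within each contrast. The few arrays limit the precision. Of the 76 called genes 23 had another probe tested, of opposite sign for 1 (Itgae). Deviations of same-numbered arrays from their group means had r of 0.158, -0.074 and -0.008, beside -0.146 to 0.159 for arrays of unlike number. Deviations from a mean of 3 arrays depend on each other, so this cannot tell if the numbers pair the arrays.

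The 44 lists have 887 distinct genes, of which 776 were tested, 91 did not pass the detection filter and 20 have no probe. They are described by counts and medians. The members and lists were chosen with earlier results of these data known. The rule for names took the 12 largest rises and 12 largest falls past 5% FDR without clone symbols; a set of 12 genes (Dbp, Arntl, Tnf, Il1b, Ccl2, Lcn2, Saa1, Cyp7a1, Cyp8b1, Abcb11, Nr0b2 and Nr1h4); up to 5 called members of each list, otherwise the 2 with the smallest p; and the 4 smallest p of the difference between both comparisons. Other genes were named after their values were seen. A gene that a whole group failed to detect has its fold given as a lower bound, against the dimmest detected signal of those arrays. Promoter windows of 250 bases came from RefSeq (32851 promoters of 27025 genes), and a gene counts where any of its promoters holds the motif. On simulated data of 15469 genes with 200 changed, 72% were recovered at a log2 change of 1 and 97.2% at 2, with 10.2 false calls per run. The simulated noise was independent between genes and equal in spread on all arrays. The estimated weights of the real arrays ran from 0.3947 to 1.555, so these rates may not hold for them. Alternatives varied the background, scaling, filter, probe choice, variance model, replicate block and each array. Some genes, members of the lists among them, are counted but not reported here.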

Additional observations from a re-analysis of the deposited data

How the results depend on the processing

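Of the 76 called genes, 13 kept their call in all 25 alternatives, 3 more kept it in the 24 that tested them, 60 lost it in at least 1 and 0 reversed. Of the 108 other genes examined, 25 passed in some setting. The count of 76 became 29 in a fit of only the 6 arrays, 122 with an intensity trend and robust variances, 127 without lean FXR-K217Q replicate 3 and obese FXR-WT replicate 1 together, and 29 to 124 without single arrays. For FXR-WT the count of 185 became 110 in a fit of its own arrays, 514 with array weights, 467 without that pair of arrays and 36 to 283 without single arrays. For the difference between both comparisons 1 gene passed with an offset of 50 and 1 with the intensity trend. The fits on fewer arrays have fewer degrees of freedom, and other causes were not tested. With the replicate block the counts were 51 with the mutants (49 shared with the 76), 102 with FXR-WT and 0 for the difference. It is not known if the numbers pair the arrays.

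Some small changes turned sign. Without single arrays Tnf lay between -0.221 and 0.267, Cyp7a1 between -0.936 and 0.122, Il1b between -0.787 and 0.106, Saa1 between -0.271 and 0.001, and Tcrb-V8.3 between -0.187 and 0.321. Tnf was also at -0.001 with the mean of its probes, -0.004 with array weights and -0.106 without both named arrays. The median of all genes was 0.003 to 0.056 under each scaling. A slide block was not run, as the headers name no slide.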

Other observations

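Genes that break down amino acids lay lower in obese FXR-K217R livers without a call. Of 37 tested, 29 changes were negative, 16 were lower without overlap (8.87% of all genes were) and 0 passed (median -0.37, and -0.38 with FXR-WT). Aass, the first enzyme of lysine breakdown, was at 8.89, 9.20 and 8.94 in obese FXR-K217R livers and at 9.67, 10.02 and 9.97 in lean FXR-K217Q livers, and just missed the threshold (-0.88, adjusted p = 0.0503). Cps1, the entry enzyme of the urea cycle (-1.08), and Cbs, which joins homocysteine to serine (-0.90), both had an adjusted p of 0.0742, and Cth, the next enzyme of that route, changed by -1.55 (adjusted p = 0.117). Of 20 hepatocyte identity genes 16 were negative (median -0.24), and their summed level was 239500 to 254900 against 270800 to 280700. Of 25 genes of the unfolded protein and integrated stress response 20 were negative (median -0.46, and -0.29 without lean FXR-K217Q replicate 3, which was the highest of its group in 18 of the 25). Hsp90b1, a chaperone of the endoplasmic reticulum, came nearest to passing (-0.66, adjusted p = 0.144).

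Genes that differ between male and female mouse liver moved a little. Of 22 tested male-biased genes 2 fell (C8b and Susd4) and 1 rose (Serpina12), where 1 gene in all passed without lean FXR-K217Q replicate 3. Of 17 female-biased genes 1 rose (Acot3, which passed in 2 of the 11 fits that leave out 1 array, with an adjusted p of up to 0.152 without obese FXR-K217R replicate 3). Over all genes 0.491% passed in either direction. Of the male-biased genes 15 were negative (median -0.14), and of the female-biased genes 11 were positive (median 0.30). Cyp2b13, a female-biased cytochrome P450, was at 9.01, 9.50 and 9.09 in obese FXR-K217R livers and at 5.48, 7.46 and 4.59 in lean FXR-K217Q livers, and Cyp2b9, its neighbour, at 11.06, 11.78 and 11.98 against 9.01, 10.19 and 6.73. Both were higher without overlap, and the lean arrays spread widely (3.36, adjusted p = 0.168, and 2.96, adjusted p = 0.234). Without lean replicate 3 the changes were 2.73 for Cyp2b13 and 2.00 for Cyp2b9. Of 11 erythroid markers 5 were positive and 6 negative (median -0.15), 5 were lower without overlap (8.87% of all genes were) and 0 passed. Their summed level, in which the brightest members weigh most, was 47730 to 53410 against 64920 to 72020, without overlap. Oxidative phosphorylation subunits differed little: 0 of 28 passed and all changes lay between -0.18 and 0.33.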
